A study of Mus musculus with 38 samples.

Results

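The genes described here are 8 members of the negative limb of the circadian clock, chosen by name: the Period genes Per1, Per2 and Per3, the cryptochrome genes Cry1 and Cry2, and the related repressors Bhlhe40, Bhlhe41 and Ciart. They were 8 of the 20018 genes with a symbol on the array, measured by 9 of its 55681 probes, with 2 probes for Bhlhe41 and 1 for each of the others. Expression was measured on 38 dual-colour arrays in 2 tissues, lung and forestomach, of male mice of the MutaMouse strain, which carries a recoverable lacZ reporter for mutation assays. Mice of about 10 weeks of age received the polycyclic aromatic hydrocarbon dibenz[a,h]anthracene (DBahA) in olive oil by gavage on 28 days. The daily dose was 6.25 mg per kg body weight in D1, 12.5 in D2 and 25 in D3, and the D0 controls received olive oil alone. Tissue was taken 72 h after the last dose from mice kept on a light and dark cycle, and the hour of collection is not given in the sources used here. Each value is the log2 ratio of tissue RNA (Cy5) to 1 universal reference RNA pooled from mouse cell lines (Cy3), so a probe can be compared between samples but not with another probe. Lung was measured in 5, 5, 4 and 5 mice and forestomach in 5, 5, 4 and 4 mice of D0, D1, D2 and D3. Slices of whole tissue were used, in which fewer cells of a type and less RNA per cell cannot be told apart.

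In the mammalian clock, the activators CLOCK and BMAL1 (the product of Arntl) bind E-boxes and drive the Per and Cry genes, whose proteins enter the nucleus as a complex and shut off their own activators in the course of a day. BHLHE40 and BHLHE41 (also called DEC1 and DEC2) compete for the same E-boxes, and CIART (also called CHRONO) binds BMAL1 and represses it. Per1 and Per2 also respond quickly to glucocorticoids and to signals that act through cAMP, and lung cells keep daily rhythms of their own.

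In lung, Per3 passed the test at D2 (1.63-fold higher than D0) and Bhlhe40 at D3 (1.51-fold higher). Per1 and Per2 had fold changes of similar size that did not pass. Without background subtraction both cryptochrome genes were within 0.14 of D0 on the log2 scale, but Cry1 was well above background on 6 of 19 lung arrays. In forestomach no member passed at any dose. Among controls, Cry2, Per1 and Per2 were higher in lung than in forestomach.

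Promoter windows were searched for clock elements close to the start sites, and sequence outside the windows was not searched. RefSeq windows on GRCm38.p6, which span 250 bases before to 50 bases after a start site, were found for 6 of the 8 members, 2 of them for Per1, and none for Per2 or Bhlhe40. Printed are the window of Per3, the Period gene that passed the test in lung, 1 window of Per1 and that of Cry2, which were called higher in control lung than in forestomach, and that of Ciart, which holds the most E-boxes. Capitals mark every match, on either strand, to the E-box (CACGTG), the E-prime box (CACGTT), the cAMP response element (TGACGTCA), the D-box (TTATGTAA or TTACGTAA), the Rev-erb and Ror element core (AGGTCA) and the core of the dioxin response element (GCGTG). No matches overlapped in these windows. All run 5′ to 3′ on the strand of the gene, the minus strand for Per3 (chr4:151044616-151044915), Cry2 (chr2:92434020-92434319) and Ciart (chr3:95882179-95882478) and the plus strand for Per1 (chr11:69098699-69098998).
Per3: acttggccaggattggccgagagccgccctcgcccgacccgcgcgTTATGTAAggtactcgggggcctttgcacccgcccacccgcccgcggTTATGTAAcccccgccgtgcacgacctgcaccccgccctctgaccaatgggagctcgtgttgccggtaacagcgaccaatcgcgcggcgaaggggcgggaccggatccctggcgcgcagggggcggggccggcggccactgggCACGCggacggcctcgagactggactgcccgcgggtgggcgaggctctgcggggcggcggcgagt
Per1: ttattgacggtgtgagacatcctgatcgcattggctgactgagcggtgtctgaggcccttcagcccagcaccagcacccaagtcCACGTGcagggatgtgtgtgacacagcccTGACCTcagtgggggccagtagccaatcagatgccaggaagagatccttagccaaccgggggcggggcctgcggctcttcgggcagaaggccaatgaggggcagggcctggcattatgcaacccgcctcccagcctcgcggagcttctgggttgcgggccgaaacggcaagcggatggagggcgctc
Cry2: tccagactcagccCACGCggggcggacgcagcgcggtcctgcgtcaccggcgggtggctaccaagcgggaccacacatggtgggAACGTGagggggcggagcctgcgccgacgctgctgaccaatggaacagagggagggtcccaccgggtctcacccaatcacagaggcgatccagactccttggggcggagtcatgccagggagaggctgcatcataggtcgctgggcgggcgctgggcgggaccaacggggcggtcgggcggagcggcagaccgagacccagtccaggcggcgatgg
Ciart: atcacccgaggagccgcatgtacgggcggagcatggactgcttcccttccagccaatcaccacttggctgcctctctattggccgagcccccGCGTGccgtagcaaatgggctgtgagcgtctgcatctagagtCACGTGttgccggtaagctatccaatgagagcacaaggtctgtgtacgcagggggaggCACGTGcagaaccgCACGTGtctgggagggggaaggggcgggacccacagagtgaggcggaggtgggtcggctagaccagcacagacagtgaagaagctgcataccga

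The Per3 window held 2 D-boxes, 205 and 158 bases before the start site, the element that DBP, TEF, HLF and their repressor NFIL3 bind. D-boxes were in 1.06% of all 32851 promoter windows. Ciart held 3 E-boxes, and Per1, Cry1 and Bhlhe41 held 1 each, which made 4 of 7 member windows against 7.15% of all windows. The E-prime box was in the windows of Cry1 and Cry2 and in 4.68% of all windows. The Rev-erb and Ror element core was in 1 window of Per1 and in 16.3% of all, and the cAMP response element was in 0 member windows and in 1.79% of all. The core of the dioxin response element, which the aryl hydrocarbon receptor recognises, was in 6 of 7 member windows and in 32.4% of all. The 7 member windows were 61.3% to 73.3% G and C, and the shares of all windows were not matched for base content. A match describes the letters of a window and is not a measurement of binding.

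**Figure D1:**
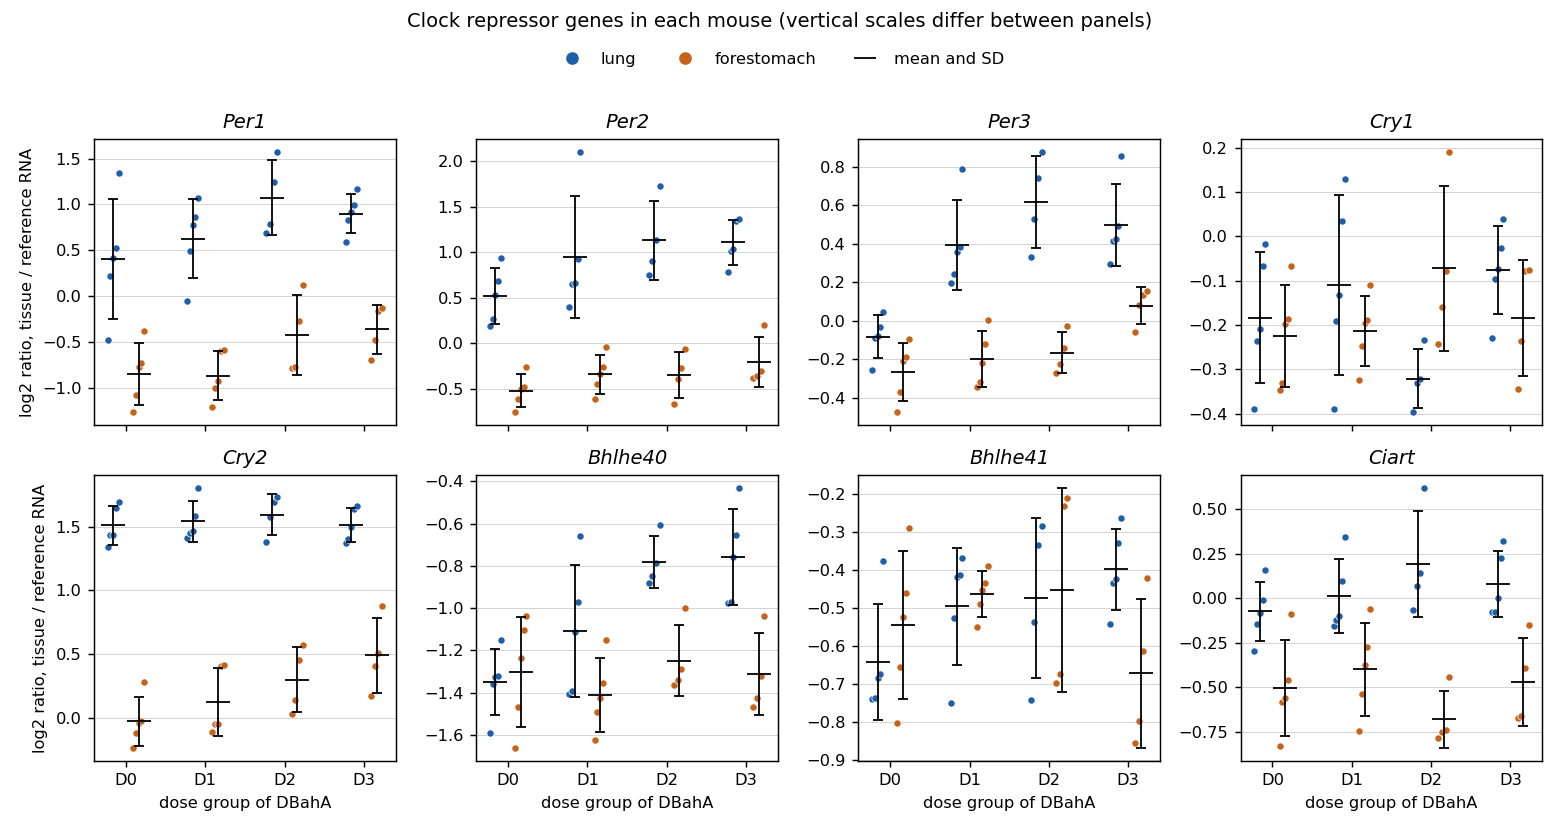
Log2 ratio of tissue RNA to reference RNA (vertical axis, scales differ between panels) for each of the 8 genes in each mouse, by dose group of DBahA (horizontal axis), with lung and forestomach in separate colours and the mean and SD of each group in black. In lung, Per3 at every dose and Bhlhe40 at D2 and D3 lie above all D0 mice, whereas Cry2 has lung means of 1.51 at both D0 and D3 and forestomach means of -0.03 at D0 and 0.49 at D3.

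To determine whether the members responded in lung, each dose was compared with D0 by limma over all probes. A gene was called when the adjusted p was at most 0.05 and the fold change at least 1.5. At D1 0 of 8 members were called, against 0.14% of all probes. At D2 1 of 8 was called, against 0.264%, and at D3 1 of 8, against 0.639%. By 1 probe for each of the 20018 genes, 55 were called higher and 1 lower at D1. The counts were 99 and 3 at D2, and 204 and 30 at D3. An unadjusted p under 0.05 was reached by 1, 4 and 4 of the 8 members at D1, D2 and D3, beside 1654, 2275 and 3204 of the 20018 genes. The log2 fold change was above 0 for 8, 7 and 8 of the 8 members at D1, D2 and D3, with medians of 0.18, 0.42 and 0.37, beside medians of 0.01 over all genes. The comparisons share the D0 mice. Between D3 and D1 in lung 0 members and 0% of all probes were called, while 2448 probes, with 1 member (Bhlhe40, 0.35) among them, had an unadjusted p under 0.05.

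Per3 encodes a PER protein that is not essential for the clock to run. Its log2 ratio in D0 lungs was -0.26, 0.04, -0.08, -0.09 and -0.03. It was 0.19, 0.79, 0.25, 0.36 and 0.38 at D1, 0.74, 0.88, 0.33 and 0.53 at D2, and 0.85, 0.42, 0.49, 0.42 and 0.30 at D3. Every exposed mouse was above every control, and the 3 exposed groups overlapped each other. Per3 rose at D2 by a log2 fold change of 0.70 (SE 0.13, adjusted p = 0.0106, 4 of 4 mice). At D3 the log2 fold change was 0.58 (SE 0.12, adjusted p = 0.0156, 5 of 5 mice), which at 1.49-fold was just under the fold threshold. At D1 it was 0.48 (SE 0.12, adjusted p = 0.200). The difference between D3 and D1 was 0.10, with a 95% interval from -0.15 to 0.36. Within a slide, differences were taken from its D0 mouse, or from the mean of its D0 mice where it held more. A slide without a D0 lung was left out. The differences were above 0 on 4 of 4 slides at D1 (0.32 to 0.75). They were above 0 on 3 of 3 at D2 (0.41 to 0.83) and on 4 of 4 at D3 (0.37 to 0.57).

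The Per3 probe was dim, and 2 of 5 D0 lungs were well above background. No background was subtracted for the values above. The Feature Extraction ratio, made after background subtraction, gave log2 fold changes for Per3 of 1.51, 1.95 and 1.77 at D1, D2 and D3, all called (adjusted p = 0.00926, 0.00133 and 0.00132). The call at D2 was lost without D2 mouse 12 (0.61, adjusted p = 0.0762) and with median centring in place of loess (0.67, adjusted p = 0.658). Over all alternatives the adjusted p for Per3 ran from 0.00926 to 0.817 at D1, from 0.00133 to 0.658 at D2 and from 0.00132 to 0.732 at D3.

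Bhlhe40, a repressor that hypoxia and cell stress also induce, was below the reference in all lungs. Its log2 ratio was -1.36, -1.32, -1.32, -1.15 and -1.59 at D0 and -1.40, -0.66, -1.11, -1.39 and -0.97 at D1. At D2 it was -0.85, -0.61, -0.79 and -0.88, and at D3 -0.43, -0.97, -0.98, -0.76 and -0.65. All mice of D2 and D3 were above all D0 mice, whereas D1 overlapped each of the other groups. Bhlhe40 rose at D3 by a log2 fold change of 0.59 (SE 0.13, adjusted p = 0.0235, 5 of 5 mice). At D2 it was 0.57 (SE 0.14, adjusted p = 0.0992, 4 of 4 mice) and at D1 0.24 (SE 0.13, adjusted p = 0.804). Within slides the D3 difference was above 0 on 4 of 4 slides (0.34 to 0.82). The D3 value lies close to the fold threshold, which is 0.58 on the log2 scale, and it was called in 12 of 19 alternatives, with an adjusted p from 0.0163 to 0.732. It was not called without D3 mouse 16 (0.51, adjusted p = 0.0896), D0 mouse 5 (0.53, adjusted p = 0.0845), D3 mouse 19 (0.59, adjusted p = 0.0541) or D3 mouse 20 (0.57, adjusted p = 0.0617), nor with median centring, with the authors' table (0.55) or with scan day as a block (0.58).

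Read by overlap of the mice, 1 member lay wholly above D0 at D1 (Per3), against 0.912% of all probes. At D2 and D3 2 members did (Per3 and Bhlhe40), against 1.58% and 2.05%.

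Per1 and Per2, the PER proteins on which the clock depends, spread more widely between mice. Per1 in lung was 0.42, 0.53, 1.35, -0.48 and 0.22 at D0 and 1.06, 0.78, -0.06, 0.86 and 0.49 at D1. It was 0.79, 1.57, 0.69 and 1.25 at D2 and 0.99, 0.91, 0.59, 1.17 and 0.83 at D3. D0 mouse 3 was above every D3 mouse and D0 mouse 4 was the lowest of all lungs, so that the groups overlapped. The log2 fold change of Per1 was 0.22 at D1, 0.67 (SE 0.27, adjusted p = 0.510) at D2 and 0.49 (SE 0.25, adjusted p = 0.491) at D3. The 95% interval at D3 ran from -0.04 to 1.02. These values rested on single D0 mice, since without D0 mouse 4 they were 0.00 at D1 and 0.27 at D3, and without D0 mouse 3 they were 0.46 and 0.73. Without D1 mouse 6 or 8 the D1 value was 0.11 or 0.39, and median centring gave 0.61, 1.12 and 0.92 at D1, D2 and D3.

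Per2 in lung was 0.27, 0.69, 0.19, 0.53 and 0.93 at D0 and 0.93, 2.10, 0.40, 0.65 and 0.66 at D1. It was 1.14, 1.73, 0.75 and 0.90 at D2 and 1.37, 1.01, 1.03, 0.79 and 1.35 at D3. At D2 and D3 D0 mouse 5 overlapped the exposed mice, and at D1 mouse 7 stood well above the other D1 mice. The log2 fold change of Per2 was 0.43 (SE 0.25, adjusted p = 0.825) at D1, 0.61 (SE 0.26, adjusted p = 0.559) at D2 and 0.59 (SE 0.25, adjusted p = 0.347) at D3. Without mouse 7 the value at D1 was 0.14. Neither Per1 nor Per2 was called in lung under any alternative at any dose.

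The cryptochromes are the partners of the PER proteins that do most of the repression of CLOCK and BMAL1. In lung loess ratios, without background subtraction, both differed little from D0. Cry2 was 1.44, 1.70, 1.34, 1.44 and 1.65 at D0 and ran from 1.37 to 1.66 at D3, all inside the range of D0. Its log2 fold change was 0.03, 0.08 and 0.00 at D1, D2 and D3, with a 95% interval at D3 from -0.20 to 0.20. Median centring, which had a wider spread, gave 0.44 at D3 and did not call it. Cry1 was well above background on 6 of 19 lung arrays. Its log2 fold change was 0.07, -0.14 and 0.11 at D1, D2 and D3, with a 95% interval at D3 from -0.08 to 0.30, and the groups overlapped. With the Feature Extraction ratio the values for Cry1 were 0.27, -0.46 and 0.61, and none was called.

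Of the other repressors, Bhlhe41 was measured by 2 dim probes. The brighter was well above background on 12 of 19 lung arrays and gave log2 fold changes of 0.15, 0.17 and 0.24 (adjusted p = 0.319 at D3). The dimmer was well above background on 1 lung array and gave -0.16, 0.05 and 0.04, so the probes differed in sign at D1. With the Feature Extraction ratio the brighter probe gave 0.69, 0.79 and 1.07, none of them called. Ciart ranged from -0.30 to 0.16 at D0, from -0.07 to 0.62 at D2 and from -0.08 to 0.32 at D3. Its log2 fold change was 0.09, 0.27 (adjusted p = 0.646) and 0.15 at D1, D2 and D3.

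**Figure D2:**
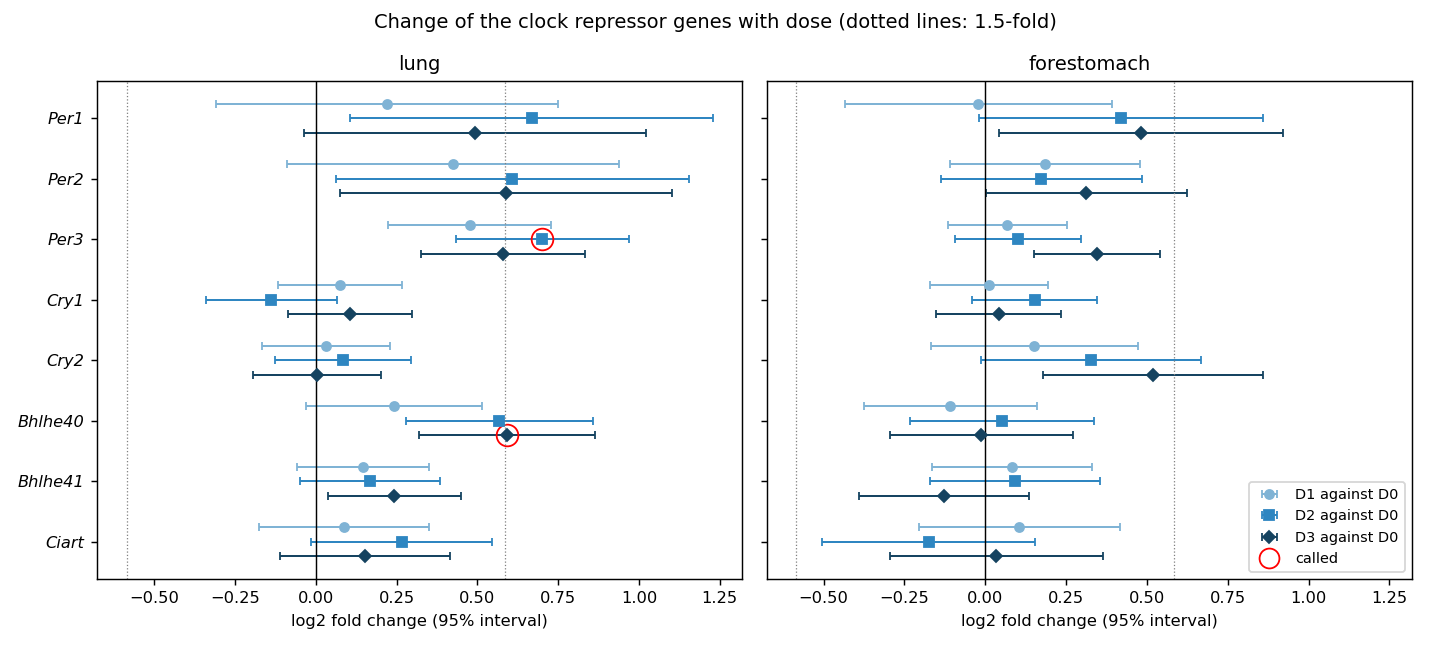
Log2 fold change against D0 (horizontal axis, with 95% interval) of each of the 8 genes (vertical axis) at D1, D2 and D3, in lung and in forestomach, with dotted lines at 1.5-fold and red rings around called values. Rings mark Per3 at D2 (0.70) and Bhlhe40 at D3 (0.59) in lung, and no value is ringed in forestomach.

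**Figure D3:**
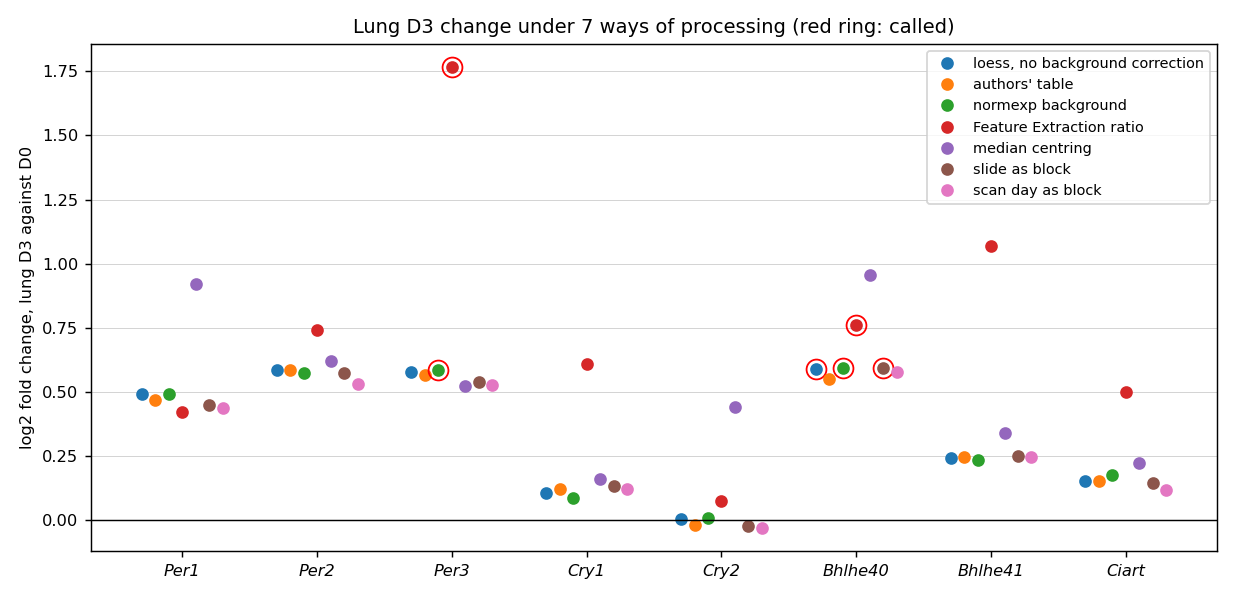
Log2 fold change of lung at D3 against D0 (vertical axis) for each of the 8 genes (horizontal axis) under 7 ways of processing the arrays, each in its own colour, with called values ringed in red. Per3 goes from 0.58 with loess ratios to 1.77 with the Feature Extraction ratio, and Bhlhe40 stays above 0 in all of them.

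The same comparisons were made in forestomach, the squamous part of the rodent stomach that gavage reaches first. At D1, D2 and D3 0 of 8 members were called, and 0% of all 55681 probes were called at each dose. Over all probes 2402, 1737 and 1986 reached an unadjusted p under 0.05, of which members were 0, 0 and 4. The log2 fold change was above 0 for 6, 7 and 6 of 8 members, with medians of 0.08, 0.13 and 0.18.

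The 4 members with an unadjusted p under 0.05 at D3 were Per1, Per2, Per3 and Cry2, each with an adjusted p of 1.00. Per3 in forestomach was -0.37, -0.21, -0.19, -0.10 and -0.47 at D0 and 0.14, 0.08, -0.06 and 0.15 at D3. With the 2 arrays labelled mouse 18 averaged, every D3 mouse was above every D0 mouse, the single member of 8 of which this was so, against 0.498% of all probes. The first of those arrays alone, at -0.101, lay below D0 mouse 4 at -0.0961, so that the groups then overlapped, and the second was at -0.018. At D1 and D2 0 members did so, against 0.264% and 0.471%. The log2 fold change of Per3 at D3 was 0.35 with a 95% interval from 0.15 to 0.54. No D0 forestomach was well above background for Per3, and 3 of the 5 D3 arrays were. In the normalised Cy5 channel, with D0 held at no less than the lowest signal well above background, the estimated fold was 1.17. That channel is derived from the normalised ratio and so depends on Cy3 too. For Per3 the floor left the D0 mean as measured. This estimate makes no allowance for the spread between mice.

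Cry2 in forestomach was -0.24, -0.05, -0.12, -0.02 and 0.28 at D0, and 0.51, 0.88, 0.41 and 0.17 at D3. A single D3 mouse, mouse 19, lay below the highest D0 mouse. The group means of Cry2 were -0.03 ± 0.19 (SD, n = 5), 0.12 ± 0.27 (n = 5), 0.30 ± 0.25 (n = 4) and 0.49 ± 0.30 (n = 4) from D0 to D3. Neighbouring means lay within 1 SD of each other, and the D3 log2 fold change was 0.52 with a 95% interval from 0.18 to 0.86. Within slides it was above 0 on 4 of 4 slides (0.19 to 0.92). The first and second arrays labelled mouse 18 lie on different slides and are counted here separately, so the slides are not all separate mice.

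Per1 in forestomach was -0.78, -1.08, -0.38, -1.26 and -0.74 at D0 and -0.69, -0.13, -0.16 and -0.48 at D3, and the groups overlapped. Its D3 log2 fold change was 0.48 with a 95% interval from 0.04 to 0.92. Per2 was -0.51, -0.75, -0.26, -0.61 and -0.48 at D0 and -0.35, -0.38, 0.20 and -0.30 at D3, with a log2 fold change of 0.31. No D0 array was well above background for Per2. In the normalised Cy5 channel, as for Per3, the estimated fold was 1.11, without allowance for the spread between mice. Bhlhe40 was -1.23, -1.47, -1.04, -1.10 and -1.66 at D0 and -1.47, -1.32, -1.04 and -1.43 at D3, so that the groups lay on top of each other (log2 fold change -0.01, 95% interval -0.30 to 0.27). Cry1, Bhlhe41 and Ciart had D3 log2 fold changes of 0.04, -0.13 and 0.03. The Feature Extraction ratio gave 1.85 for Per3 and 1.68 for Per2 at D3, and median centring gave 1.23 for Cry2, 1.22 for Per1 and 0.69 for Bhlhe40, none of which was called. Between D3 and D1 in forestomach 0 members and 0% of probes were called, and 2979 probes, with 3 members (Per1, 0.50; Cry2, 0.37; Per3, 0.28) among them, had an unadjusted p under 0.05.

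Forestomach slices differed in their level of glandular stomach markers, which squamous tissue should lack. The mean log2 ratio of 9 glandular stomach markers ran from 0.58 to 6.48 at D0, from 0.36 to 5.73 at D1, from 0.82 to 5.58 at D2 and from 3.50 to 6.00 at D3. All 9 markers had a positive log2 fold change at D3 (median 1.17), and 0 were called. With that score in the fit, the D3 log2 fold changes of Cry2, Per1, Per3 and Per2 were 0.57, 0.53, 0.34 and 0.32, and 0 members were called. The 5 fat markers had a median of -0.80 at D3, and their part in the members' values was not tested. The 2 arrays labelled mouse 18, averaged here, had glandular scores, relative to the D0 mean, of -2.80 and 2.31, where all forestomach mice ran from -3.39 to 2.74. The second lies on the slide that holds the lung of mouse 20. With the first or the second array alone, 0 members were called at D3.

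In lung, the 7 lung markers were well above background on all arrays, and at D3 their log2 fold changes had a median of -0.10 with 0 called. Heart muscle markers varied between lung slices, with mean log2 ratios from 0.06 to 1.99 at D0, from -0.12 to 2.63 at D1, from -0.03 to 3.66 at D2 and from -0.02 to 3.39 at D3. At D3 6 of 6 had a positive log2 fold change (median 0.72) and 0 were called, and the part of heart muscle in the lung values of Per3 and Bhlhe40 was not tested.

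Whether the response at D3 differed between lung and forestomach was tested as an interaction over both tissues. Here 0 of 8 members were called, against 0.172% of all probes, and 3 members had an unadjusted p under 0.05. These were Bhlhe40, 0.60 higher in lung on the log2 scale (95% interval 0.21 to 1.00, adjusted p = 0.436), Cry2, -0.52 (95% interval -0.90 to -0.14, adjusted p = 0.624), and Bhlhe41, 0.37 (95% interval 0.05 to 0.69, adjusted p = 0.885). The lung call of Bhlhe40 is therefore not shown to differ from forestomach. For Per3, Per2 and Per1 the differences were 0.23, 0.27 and 0.01, with adjusted p of 1.00.

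Among the controls, 3 of 8 members were called higher in lung than in forestomach and 0 lower, against 16.2% of all probes called in either direction. By 1 probe for each of the 20018 genes, 2972 were called higher and 2556 lower. Cry2 was 2.91-fold higher in lung (log2 difference 1.54, SE 0.13, adjusted p = 8.66e-12), with every control lung at 1.34 or above and every control forestomach at 0.28 or below. Per1 was 2.38-fold higher (log2 difference 1.25, SE 0.24, adjusted p = 1.1e-04), although lung of D0 mouse 4, at -0.48, overlapped the forestomachs. Per2 was higher by 1.04 on the log2 scale (adjusted p = 2.62e-04, 5 of 5 lungs above all forestomachs). No control forestomach was well above background for Per2. In the normalised Cy5 channel, with forestomach held at no less than the lowest signal well above background, the estimate was 1.83-fold higher. Such an estimate makes no allowance for the spread between mice. For 2 of 8 members, Cry2 and Per2, every control lung was above every control forestomach, as it was for 9.93% of all probes.

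Ciart was higher in lung by 0.43 (adjusted p = 0.0196), which is under the fold threshold. In the normalised Cy5 channel, as for Per2, the estimate was 1.33-fold, without allowance for the spread between mice. Per3 differed by 0.19 (adjusted p = 0.227), Cry1 by 0.04, Bhlhe40 by -0.05 and Bhlhe41 by -0.10. The Feature Extraction ratio gave log2 differences of 3.31 for Per2, 1.78 for Ciart and 1.06 for Per3 and called all of these as well as Cry2 and Per1. The tissues themselves matched their labels, since 6 of 7 lung markers were called higher in lung and 9 of 9 squamous markers higher in forestomach.

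The partners of these repressors were read from lists of clock and hormone genes. The hour of collection of each mouse is not given, and its part in the values of these genes and of the members was not tested. Among 4 clock activators, Arntl, which encodes BMAL1, fell in lung by 1.35 at D2 (adjusted p = 0.0255) and by 1.49 at D3 (adjusted p = 0.00339) on the log2 scale. Its mean log2 ratio was 0.44 ± 0.38 (SD, n = 5) at D0 and -1.04 ± 0.54 (n = 5) at D3, and all D3 lungs were below all D0 lungs. The other 3 activators were not called at any dose. Of 5 Rev-erb and Ror receptors, which repress and activate Arntl, Nr1d2 rose by 1.11 at D2 (adjusted p = 0.0226) and 1.17 at D3 (adjusted p = 0.00467). Nr1d1, the other Rev-erb, had log2 fold changes of 0.70, 0.88 and 0.51 and was not called.

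Of 4 D-box binding factors, which are outputs of the clock, 1 was called at D1, 2 at D2 and 4 at D3. Dbp rose by 1.67 (adjusted p = 0.0356), 2.30 (adjusted p = 0.00199) and 2.32 (adjusted p = 6.03e-04) at D1, D2 and D3. Tef rose by 0.87 (adjusted p = 0.0152) at D2 and 0.95 (adjusted p = 0.00215) at D3, and Hlf by 1.04 (adjusted p = 0.00909) at D3. Nfil3, the repressor of this group, fell by 0.70 at D3 (adjusted p = 0.0417). The D3 calls of Arntl, Nr1d2, Dbp, Tef and Hlf held in 18 of 19 alternatives and were lost with median centring, and that of Nfil3 held in 8 of 19. At D2 Dbp held in 17 of 18, Tef in 14, Nr1d2 in 12 and Arntl in 8, and at D1 Dbp held in 8 of 19.

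Of 9 kinases, ubiquitin ligase subunits and other modifiers of PER and CRY, among them Btrc and Timeless, 0 were called at any dose in lung, with medians of -0.01, -0.03 and -0.02 and 1 gene at an unadjusted p under 0.05 at each dose. Of 9 glucocorticoid-responsive genes 0 were called in lung, with medians of 0.03, 0.15 and 0.07 and 1, 2 and 2 genes at an unadjusted p under 0.05. With 0.14%, 0.264% and 0.639% of all probes called in lung at D1, D2 and D3, a count of 0 in lists of this size sets neither list apart. In this list Fkbp5, a widely used read-out of the glucocorticoid receptor, had log2 fold changes of 0.05, 0.35 and 0.35. Between control tissues the modifiers called included Btrc (0.90) and Timeless (1.21), higher in lung, while Usp2 (-1.15), a ubiquitin protease under clock control, was called lower. Of the glucocorticoid-responsive genes 4 were called higher in control lung than in forestomach (Dusp1, Klf9, Tsc22d3 and Zbtb16) and 3 lower (Fkbp5, Mt1 and Mt2), and of the other partners Dbp (1.11), Tef (1.79) and Nr1d2 (0.63) were called higher and Nfil3 (-0.75) lower. In forestomach 0 genes of any of these 5 lists were called at D1, D2 or D3. The largest D3 values there were 2.32 for Dbp and 1.32 for Tef (adjusted p = 0.886 for both), beside 0.93 for Nr1d2, -0.50 for Arntl and -0.80 for Nfil3.

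**Figure D4:**
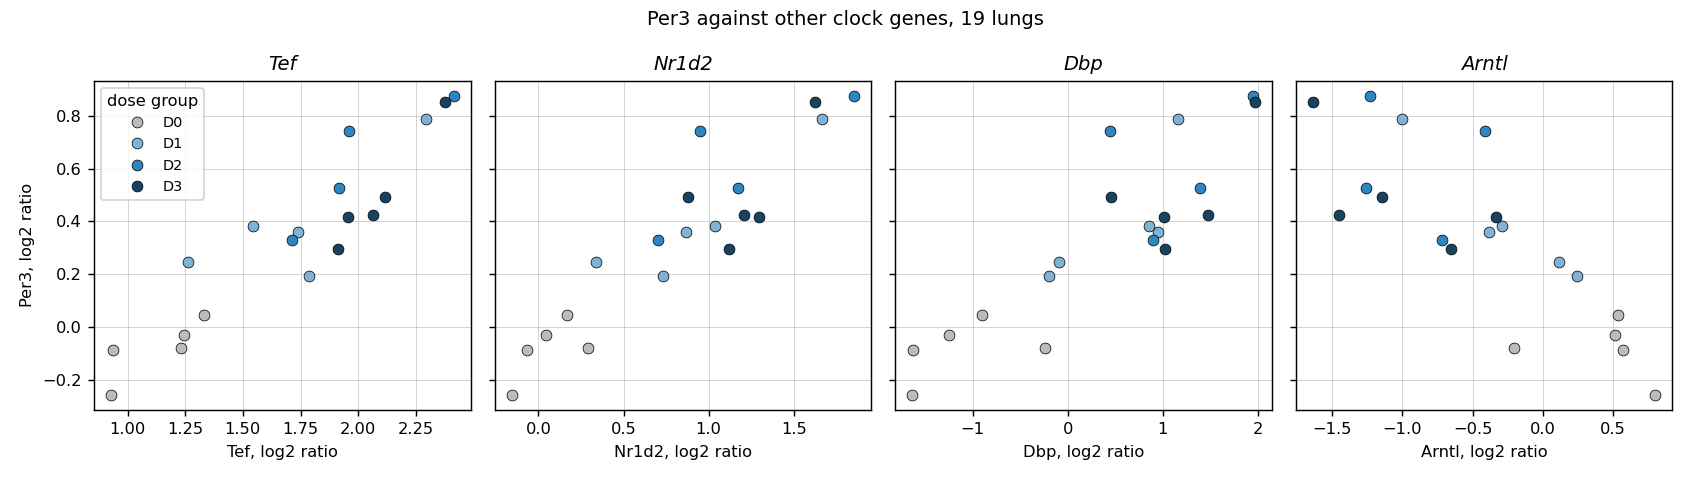
Log2 ratio of Per3 (vertical axis) against that of 4 other clock genes (horizontal axes) in 19 lungs, 1 point per mouse, coloured by dose group. Per3 is higher in the lungs in which Tef, Nr1d2 and Dbp are higher and lower in those in which Arntl is higher, with the D0 lungs at the low end of Per3.

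Likeness across the 19 lungs was measured as Pearson's r over 13692 other genes well above background on a share of at least 0.5 of the lung arrays. It is a description of these lungs, which share a reference, slides and dose groups. The genes most like Per3 were Tef (r = 0.926), Nr1d2 (r = 0.923) and Apoa2 (r = 0.917). With the mean of each dose group removed, the values for Tef, Nr1d2 and Apoa2 were 0.834, 0.802 and 0.753, so that mice of 1 dose group also varied together. For Dbp r was 0.869, and 0.576 with the means removed. For Arntl r was -0.829, and -0.605 with the means removed. Other members also varied with these genes. Bhlhe40 had r = 0.795 with Dbp and -0.823 with Arntl, with the dose means kept. Between Per3 and Bhlhe40 r was 0.799, and 0.583 with the means removed. With Arntl r was -0.648 for Bhlhe41, -0.630 for Per1, -0.581 for Per2, -0.376 for Ciart, -0.111 for Cry2 and 0.028 for Cry1.

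The other members had other nearest genes, none of them on the clock lists. Those of Per2 were Slc46a3 (r = 0.864), Lonrf1 (r = 0.852) and Jag2 (r = 0.843), and those of Per1 were Micall1 (r = 0.813), Nudt1 (r = 0.799) and Zfp346 (r = 0.795). Bhlhe40 was nearest to Ccn4 (r = 0.903), Wfdc12 (r = 0.899) and Tmem86a (r = 0.890). Cry2 was nearest to Rab3gap2 (r = 0.918), Tbc1d4 (r = 0.909) and Fbxo28 (r = 0.890). Ciart was nearest to Zfp93 (r = 0.889), Ccdc71l (r = 0.879) and Thap12 (r = 0.872). Bhlhe41 was nearest to Pstk (r = 0.843), Stard5 (r = 0.809) and Gas2l3 (r = 0.803), and Cry1 to Ifrd1 (r = 0.773), Mppe1 (r = 0.748) and Uqcc3 (r = 0.680), with Bhlhe41 and Cry1 themselves well above background on 12 and 6 of the 19 lung arrays.

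Both tissues were measured in 18 mice, which allowed the deviation of each mouse from its dose group to be compared between lung and forestomach. Of 8 such relations, tested by 100000 permutations of mice within dose groups (two-sided), 0 passed after adjustment over the 8. The closest was Bhlhe41, with Pearson's r = 0.596 (p = 0.0333, adjusted p = 0.114) and Spearman's rho = 0.719 (p = 0.00626, adjusted p = 0.0501), and r = 0.553 without the 2 mice farthest from the lung median. Per1 gave r = 0.536 (permutation p = 0.0429, adjusted p = 0.114) and rho = 0.531 (p = 0.0527, adjusted p = 0.141), and r fell to 0.287 without 2 mice. Ciart ran the opposite way, with r = -0.508 (permutation p = 0.0385, adjusted p = 0.114) and rho = -0.581 (p = 0.0215, adjusted p = 0.0862), and r = -0.714 without 2 mice. Cry2 gave r = 0.495 (permutation p = 0.0639, adjusted p = 0.128), rho = 0.463 (p = 0.0849, adjusted p = 0.170) and r = 0.454 without 2 mice. Per3 gave r = 0.295, Bhlhe40 r = 0.019 and Cry1 r = -0.172. Per2 gave r = 0.271 and rho = -0.018, and r = -0.257 without 2 mice. In forestomach, Bhlhe41 was well above background on 1 of 19 arrays, Ciart on 2, and Per2 and Per3 on 6 each. The tissues of a mouse share a slide, except that the second forestomach array labelled mouse 18 lies on another. The slide of the lung was taken for both tissues. With slide means removed as well as dose means, an alternative chosen after seeing the data that leaves 10 residual degrees of freedom, r was 0.642 for Per1, 0.744 for Per2, 0.753 for Cry2 and 0.302 for Per3, while Bhlhe41 (-0.126) and Ciart (0.193) changed sign. These slide-adjusted values were not tested.

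**Figure D5:**
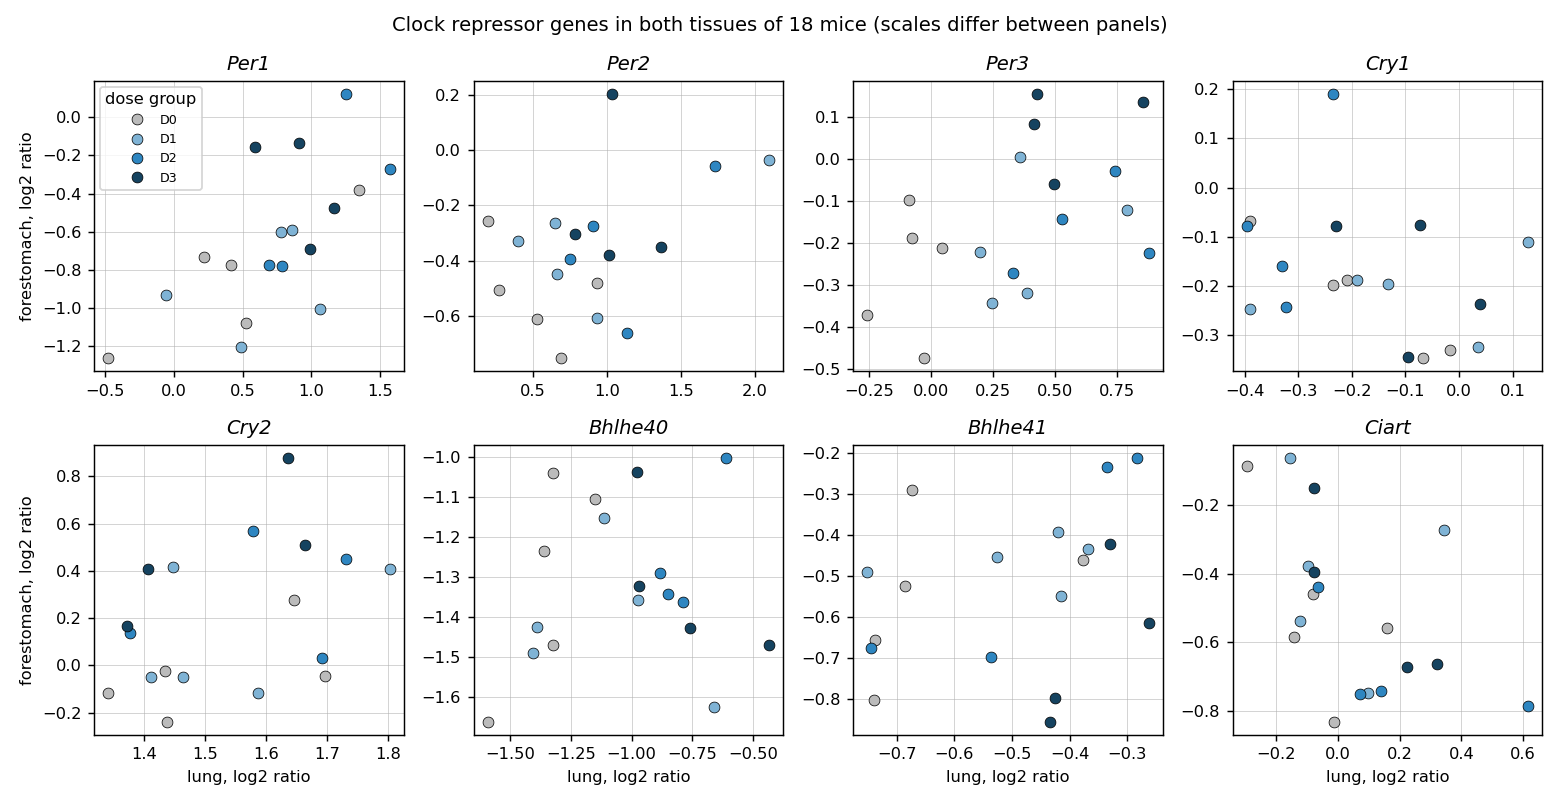
Log2 ratio in forestomach (vertical axes) against lung (horizontal axes) of the same mouse for the 8 genes, 1 point for each of 18 mice, coloured by dose group, with scales that differ between panels. Cry2 lies between 1.34 and 1.80 in lung and between -0.24 and 0.88 in forestomach, and for Bhlhe40 the group means go from -1.35 at D0 to -0.76 at D3 in lung and from -1.30 to -1.31 in forestomach.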

How the data were processed

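Expression had been measured on dual-colour Agilent mouse arrays, with tissue RNA in Cy5 and reference RNA in Cy3. The deposited median intensities of both channels, which the authors had extracted in Feature Extraction (version 10.7.3.1, per the file headers), were used without background correction. Each array was normalised by loess with limma 3.58.1 in R 4.3.3 and given as log2(Cy5/Cy3). The deposited log2 table of the authors (slopes 0.990 to 0.998 against these values) and the deposited log10 ratio of Feature Extraction served as alternatives. The study's own test, MAANOVA, was not used. Limma fitted 1 mean per dose group, within a tissue or over both, with Benjamini-Hochberg adjustment within each comparison. The brightest probe stood for a gene. Of 38 arrays, 2 labelled mouse 18 in forestomach were averaged. The members and gene lists were chosen with earlier results of these data known. Per array 30.1% to 63.8% of probes were well above background in Cy5, and the number of arrays limits the precision. The numbers of mice pair the tissues, since the labels give both tissues of an animal. Deviations correlated over 0.1 in 17 of 18 mice (r = 0.0876 to 0.281, n = 18 mice, over 25906 probes). Since the tissues of a mouse mostly share a slide, these correlations do not show the pairing by themselves. Alternatives covered normalisation, background, dim probes, slide, scan day, mouse and each mouse left out. Each gene named as most like a member is among the 3 with the highest r in lung. Of other pathway genes, those called are named, apart from a gene that is not reported here, besides Dbp, Arntl, Nr1d1 and Fkbp5 as reference genes.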

Additional observations from a re-analysis of the deposited data

Results flagged for a closer look

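Of 64 groups of 4 or 5 mice, 3 held a mouse that stood apart from the others of its group by Dixon's test, and chance marks about 1 in 20 groups. For Per2 in D3 forestomach, mouse 18 was at a log2 ratio of 0.201 while the next mouse was at -0.303, and this value averages arrays of 0.306 and 0.0959. For Bhlhe41 in D0 lung, mouse 3 was at -0.376 and the next at -0.674. For Ciart in D2 forestomach, mouse 15 was at -0.440 and the next at -0.742.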

How the results depend on the processing

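The number of members called changed with the processing mostly in lung at D3, where the calls lie near the fold threshold. With the Feature Extraction ratio, 1 member was called in lung at D1 (Per3), 2 at D3 (Per3 and Bhlhe40) and 5 between control tissues. Normexp background correction called 2 in lung at D3. Median centring called 0 at D2 and 0 at D3, and the authors' table and scan day as a block each called 0 at D3. Leaving out 1 mouse gave 0 to 1 calls in lung at D2 (0 without D2 mouse 12) and 0 to 2 at D3 (0 without D3 mouse 16, and 2 without D0 mouse 2 or D3 mouse 17). It gave 0 to 0 in lung at D1, in each forestomach comparison, in both comparisons of D3 with D1 and in the difference of the responses, and 3 to 4 between control tissues (4 without D0 mouse 4, which adds Ciart at 0.59, adjusted p = 0.00267). With the mouse as a replicate block, fixed or random, 3 members were called between control tissues and 0 in the difference of the responses, as without the block, so that the pairing changed no call. For the 80 values of single members, 1524 alternative values held 9 lost calls, 11 gained calls and 78 changes of sign, with no called value changing sign. Dim probes limit Cry1, Bhlhe41 and, in forestomach, Per2, Per3 and Ciart, which were well above background on 6 or fewer arrays, except Bhlhe41 in lung.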
